A study of Mus musculus with 4 samples.

Results

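The semaphorins, plexins and neuropilins are guidance ligands and their receptors, and their transcripts were followed here in bleomycin-injured lungs of WT and Tubb3-/- mice. Genes were taken by symbol alone (Sema followed by a digit and a letter, Plxn followed by a class letter, Nrp1 and Nrp2), which gave 31 of the 32286 genes in the count files. They were 20 semaphorins, 9 plexins and 2 neuropilins. Single-cell RNA sequencing was done on the lungs of 2 WT mice and 2 Tubb3-/- littermates, taken 14 days after 0.8 U/kg bleomycin was given into the trachea. Mice were 8 to 11 weeks old. The Tubb3-/- mice were homozygous for a Tubb3-Cre knock-in, with Cre placed at the translation start of Tubb3, so that they lack β-III tubulin and carry Cre, which the WT mice do not. All 4 mice received bleomycin, and no uninjured lung was analysed here. Each mouse gave a whole-cell sample depleted of red blood cells, and a mural cell-enriched sample depleted of endothelial, immune, epithelial and red cells, in which sorted MCAM+ PDGFRα- and MCAM- cells were mixed in equal parts. Samples were tagged and pooled by kind, so that 8 libraries came from 2 pools.

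Semaphorins are secreted or membrane-bound ligands that were first known for repelling growing axons, and that also steer vessels, immune cells and epithelia. Plexins are their signalling receptors and act on the cytoskeleton and on integrins through small GTPases. Most secreted class 3 semaphorins cannot bind plexins alone and need a neuropilin as co-receptor, whereas Sema3e binds Plxnd1 directly. Neuropilins also serve as co-receptors for VEGF family members, which makes the system known in endothelial cells.

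Cells were placed in a lineage when they held at least 1 UMI of its gene (Ptprc for immune, Cdh5 for endothelial, Epcam for epithelial, Msln for mesothelial, Higd1b or Myh11 for mural, Pdgfra for fibroblast) and none of another lineage. Of 30860 cells that met the quality limits, 15649 (50.7%) lay in 1 lineage, 14442 (46.8%) held genes of several and were dropped, and 769 held none. This left 3792 fibroblasts, 4541 mural cells, 2282 endothelial cells, 321 epithelial cells, 324 mesothelial cells and 4389 immune cells. Of these cells, 81.8% (mesothelial) to 97.8% (endothelial) were placed in the same lineage by independent markers. The markers of another lineage were mostly low. Endothelial markers, for example, reached 0.825% to 1.81% of their endothelial level elsewhere, but fibroblast markers reached 34.9% of their fibroblast level in mural cells and 47.8% in mesothelial cells, and epithelial markers reached 20.3% in mesothelial cells. Immune cells came almost wholly from the whole-cell libraries (96.6% to 98.9% per mouse) and mural cells mainly from the other pool. Of the mural cells, 83.8% to 92.8% per mouse held Myh11 and no Higd1b, and 0.444% to 1.95% held Higd1b and no Myh11. Values of the mural lineage are therefore mostly those of cells with Myh11. Tubb3 had 0.868 to 5.49 CPM (UMIs scaled to the total of gene UMIs) in the 4 WT libraries and 0.262 to 0.789 CPM in the 4 Tubb3-/- libraries. The libraries held 41462258 to 95036340 gene UMIs each. Replicate 1 of both genotypes carried the Y-linked Ddx3y and replicate 2 carried Xist, which leaves 1 mouse of each sex per genotype. No cell barcode was shared between libraries of a pool, and 1 to 9 were shared between libraries of different pools.

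UMIs were summed per mouse and lineage and given as CPM. The kit reads the 3′ end of transcripts, so that levels were compared between lineages for each gene and not between genes. A lineage value sums over its cells, and more cells with a transcript cannot be told apart from more transcript per cell. Summed over the 31 genes, transcripts were most abundant in endothelial cells, with 4845 and 4373 CPM in the WT mice and 4250 and 4412 CPM in the Tubb3-/- mice. Mesothelial cells followed with a mean of 2044 CPM ± 226 (SD, n = 4 mice). Epithelial, mural and fibroblast sums lay at 1224, 1091 and 1057 CPM, and immune cells had the lowest sum at 575 CPM. The highest lineage was endothelial for 11 genes, epithelial for 7, immune for 5, mural for 4, and fibroblast and mesothelial for 2 each. For 24 of the 31 genes, all 4 mice were higher in that lineage than all 4 mice in the next one, whereas 34.5% of 24229 genes did so. The other 7 were Nrp2, Plxna1, Plxna3, Plxnb1, Plxnb2, Plxnb3 and Sema4b. The 24229 genes included genes with very few UMIs and were not matched by level to the 31, which had 43 (Plxnb3) to 50523 (Nrp1) UMIs. The part of expression level in this contrast was not tested.

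**Figure D1:**
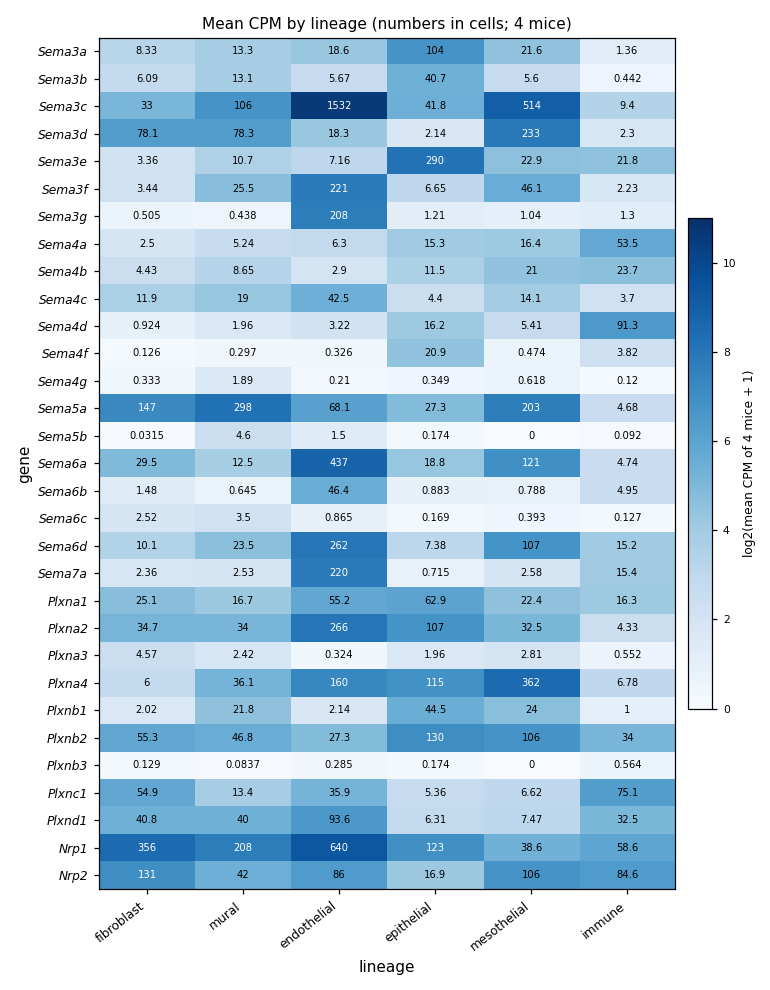
Mean CPM of the 31 genes (rows) in the 6 lineages (columns), with the value printed in each cell and the colour giving log2(mean CPM of 4 mice + 1). Sema3g, Sema7a and Sema6b are dark only in the endothelial column, Sema3e only in the epithelial column and Sema4d only in the immune column, while Nrp1 and Sema5a are spread over several lineages.

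The secreted class 3 semaphorins were divided between lineages, and 3 of the 7 were highest in endothelial cells. Sema3c (ENSMUSG00000028780, chr5:17574281-17730268 of GRCm38, + strand), which binds both neuropilins, had 1726 and 1464 CPM in endothelial cells of the WT mice and 1386 and 1554 CPM in those of the Tubb3-/- mice. Mesothelial cells were next at 605, 562, 411 and 477 CPM in the same order, well below every endothelial value. Mural cells had a mean of 106 CPM and the other lineages between 9.40 and 41.8 CPM. The mural level depended on how the cells were chosen. With mural cells chosen by independent markers and split as described below, Sema3c had 52.8 CPM in smooth muscle cells and 30.3 CPM in pericytes. Sema3g, known as an arterial and vascular ligand of Nrp2, was nearly confined to endothelial cells, with 196 and 247 CPM in WT mice and 180 and 210 CPM in Tubb3-/- mice. Its mean elsewhere was at most 1.30 CPM (immune cells), a ratio of 160 between the lineages, and a smaller share than the endothelial markers left there. Sema3f, another Nrp2 ligand, had 222, 204, 219 and 239 CPM in endothelial cells, a narrow spread over the mice, and 46.1 CPM in mesothelial cells.

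The other class 3 genes were highest outside the endothelium. Sema3e (ENSMUSG00000063531, chr5:14025276-14256689, + strand), the direct ligand of Plxnd1, had 234 and 412 CPM in epithelial cells of WT mice and 251 and 262 CPM in those of Tubb3-/- mice. Every epithelial value was far above the next lineages, mesothelial and immune cells, at 22.9 and 21.8 CPM. Sema3a, the classical Nrp1 ligand, was also highest in epithelial cells, but with a wide spread over the mice (101, 166, 96.0 and 54.0 CPM). Sema3b was highest there too, at 26.4, 33.5, 41.7 and 61.2 CPM. Sema3d had 262, 269, 209 and 191 CPM in mesothelial cells, and its mural and fibroblast means were 78.3 and 78.1 CPM. These loci lie close together. Sema3d, Sema3a, Sema3e and Sema3c follow each other in that order within 5.347 Mb of chromosome 5 (12383385 to 17730268), and each was highest in a different lineage from its neighbour except Sema3a and Sema3e. Sema3b and Sema3f share 112.8 kb of chromosome 9 (107597674 to 107710475) and were highest in epithelial and endothelial cells.

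The membrane-bound semaphorins had a vascular, an immune and a stromal group. Sema6a, a ligand of class A plexins, had 466, 467, 413 and 404 CPM in endothelial cells, with mesothelial cells next at 121 CPM. Sema6d had 263, 304, 239 and 242 CPM there, and 107 CPM in mesothelial cells. Both genes were thus highest in the same pair of lineages as Sema3c and Sema3f. The GPI-anchored Sema7a (ENSMUSG00000038264, chr9:57940112-57962865, + strand), which binds Plxnc1 and integrins, had 223, 144, 258 and 256 CPM in endothelial cells and 15.4 CPM in immune cells, and at most 2.58 CPM in the rest. Sema6b and Sema4c, a ligand of Plxnb2, were also highest in endothelial cells at 46.4 and 42.5 CPM.

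Sema4d and Sema4a were highest in immune cells. Sema4d (ENSMUSG00000021451, chr13:51685529-51793747, - strand), known as CD100 and a ligand of B plexins and of CD72, had 85.6, 85.7, 96.3 and 97.8 CPM in immune cells, against 16.2 CPM in epithelial cells. Sema4a, which acts in T cell priming, had 50.4, 57.8, 51.2 and 54.5 CPM in immune cells and 16.4 CPM in mesothelial cells. Both genes varied little over the mice. Sema4b had 23.7 CPM in immune and 21.0 CPM in mesothelial cells, and the mice overlapped. Sema5a (ENSMUSG00000022231, chr15:32244810-32696341, + strand), a thrombospondin-repeat semaphorin, was the stromal member, with 305, 334, 258 and 295 CPM in mural cells, 203 CPM in mesothelial cells and 147 CPM in fibroblasts. Low members were Sema4f, at 20.9 CPM in epithelial cells, and Sema5b, Sema6c and Sema4g, whose highest means were 4.60, 3.50 and 1.89 CPM, all in mural cells.

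Among the receptors, the class A plexins, which signal for class 3 ligands bound to neuropilins, were highest in 4 different lineages. Plxna2 (ENSMUSG00000026640, chr1:194618218-194816869, + strand) had 311, 282, 263 and 209 CPM in endothelial cells and 107 CPM in epithelial cells. Plxna4 had 372, 457, 224 and 395 CPM in mesothelial cells, with endothelial cells at 160 CPM and epithelial cells at 115 CPM. Plxna1 was nearly level between epithelial cells (62.9 CPM) and endothelial cells (55.2 CPM), and the mice overlapped. Plxna3 reached only 4.57 CPM, in fibroblasts.

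The B plexins are receptors of class 4 semaphorins, and both expressed members were highest in epithelial cells. Plxnb2 had 118, 122, 155 and 127 CPM there and 106 CPM in mesothelial cells, where the mice overlapped with the epithelial ones. Plxnb1 had 44.5 CPM in epithelial cells, 18.8 to 31.9 CPM over the mice in mesothelial cells and 21.8 CPM in mural cells. Plxnb3 stayed at or below 0.564 CPM in every lineage. Plxnc1, the receptor of Sema7a, had 83.8, 72.6, 67.8 and 76.2 CPM in immune cells and 54.9 CPM in fibroblasts. Plxnd1, the receptor of Sema3e, had 94.6, 99.3, 90.2 and 90.4 CPM in endothelial cells, and about 40 CPM in fibroblasts (40.8) and mural cells (39.96). Sema3e and Plxnd1 were therefore highest in different lineages, and so were Sema7a and Plxnc1.

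Nrp1, the co-receptor of Sema3a and of VEGF-A, had 754 and 624 CPM in endothelial cells of WT mice and 582 and 600 CPM in those of Tubb3-/- mice. Fibroblasts had 344 to 374 CPM with little spread, mural cells a mean of 208 CPM, and mesothelial cells the lowest at 38.6 CPM. Nrp2, the co-receptor of Sema3f, Sema3g and VEGF-C, was spread more evenly. It had 131 CPM in fibroblasts, 106 CPM in mesothelial cells, 86.0 CPM in endothelial cells and 84.6 CPM in immune cells, with mice of neighbouring lineages overlapping in this order.

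**Figure D2:**
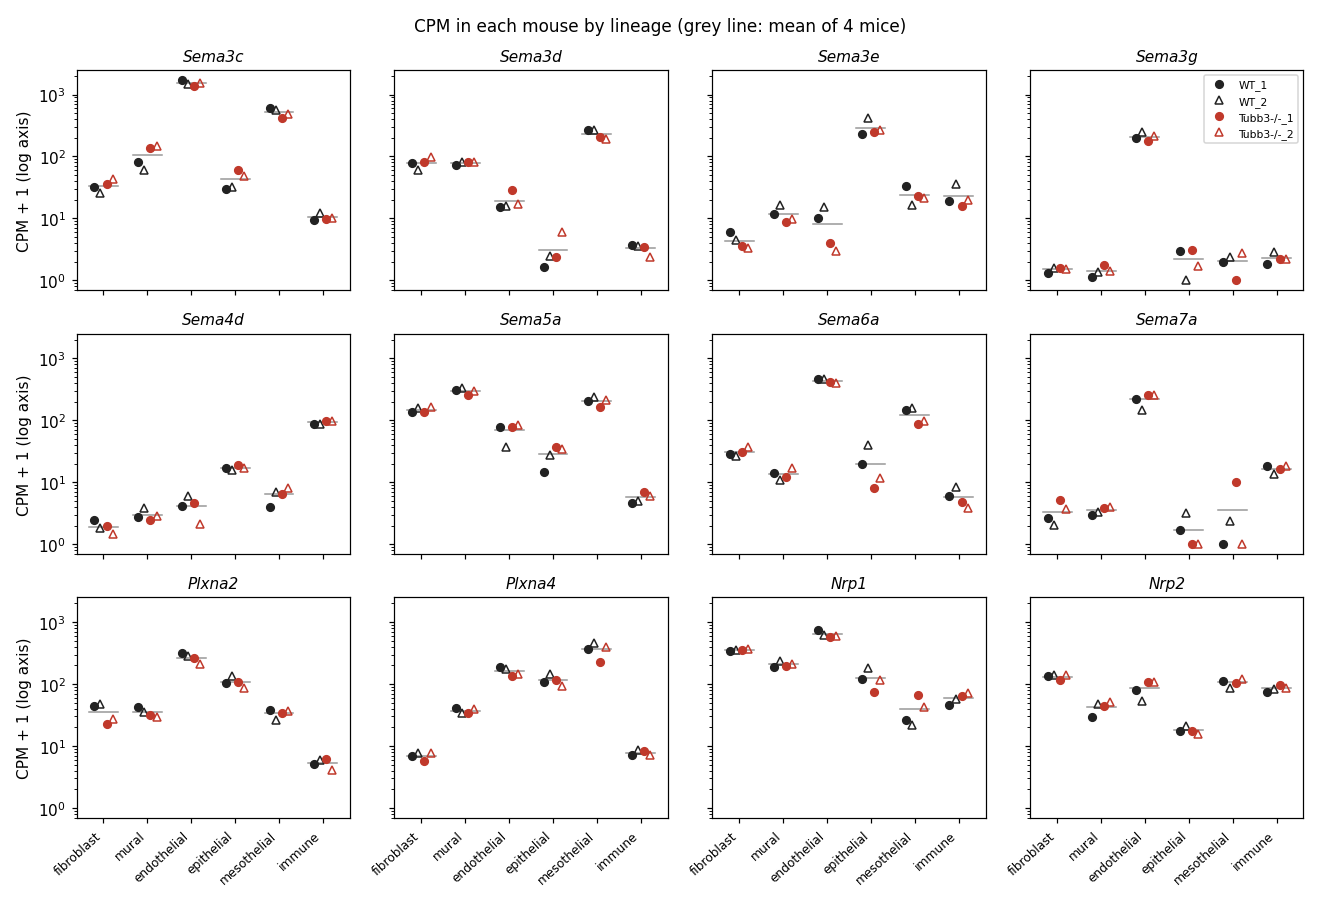
CPM + 1 (log axis) of 12 genes in each mouse and lineage, with filled circles for replicate 1, open triangles for replicate 2, black for WT, red for Tubb3-/- and a grey line at the mean of 4 mice. Mice of both genotypes lie close together in the highest lineage of each gene, as for Sema3c at 1386 to 1726 CPM in endothelial cells, while values near the bottom scatter widely.

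Promoter letters are shown for Sema3g and Sema7a, the genes most concentrated in endothelial cells, and for Sema3e, the gene most concentrated in epithelial cells. Each is the 250 bases before the RefSeq start on GRCm38.p6, 5′ to 3′ on the + strand, with capitals for the GC box GGGCGG or its reverse complement CCGCCC.
Sema3g, chr14:31217623-31217872: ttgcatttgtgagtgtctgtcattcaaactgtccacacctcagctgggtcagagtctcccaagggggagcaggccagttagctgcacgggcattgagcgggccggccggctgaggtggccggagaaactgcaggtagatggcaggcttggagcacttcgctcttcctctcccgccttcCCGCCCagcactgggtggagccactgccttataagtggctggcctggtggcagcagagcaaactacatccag
Sema7a, chr9:57939862-57940111: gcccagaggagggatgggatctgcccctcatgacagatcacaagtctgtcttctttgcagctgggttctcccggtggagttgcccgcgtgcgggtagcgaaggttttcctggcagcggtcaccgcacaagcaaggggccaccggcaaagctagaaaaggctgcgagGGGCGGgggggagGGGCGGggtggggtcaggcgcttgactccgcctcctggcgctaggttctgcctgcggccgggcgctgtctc
Sema3e, chr5:14025026-14025275: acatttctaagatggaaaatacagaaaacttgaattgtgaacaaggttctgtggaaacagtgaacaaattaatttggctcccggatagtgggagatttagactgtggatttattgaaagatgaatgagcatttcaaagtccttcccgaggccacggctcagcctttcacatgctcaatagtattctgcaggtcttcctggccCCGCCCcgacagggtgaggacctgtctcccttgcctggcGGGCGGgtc
The windows hold 60.4%, 66.4% and 48.0% G or C. RefSeq entries were found for 26 of the 31 genes, with 37 windows, of which 27 (72.97%) held the GC box on either strand, against 32.74% of 32851 windows of all genes. The ETS core CCGGAA or TTCCGG was in 4 of the 37 windows (10.81%, against 12.03% of all), and the E box CACGTG in 2 (5.405%, against 6.021%). TATAAA or TTTATA was in 0 of the 37 windows and in 12.37% of all. These letters are a description of the windows and were not tied to any lineage.

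Each lineage was compared with the mean of the other 5, with the mouse as a block, in edgeR (quasi-likelihood test), and p-values were adjusted over 16365 genes by the method of Benjamini and Hochberg. Of the 31 genes, 29 could be tested, and Plxnb3 and Sema4g had too few UMIs. In endothelial cells 16 of the 29 were higher (29.2% of all genes tested were), with a median log2 difference of 0.85 over the 29 and -0.06 over all genes. Ligands led, namely Sema3g by 7.78 ± 0.12 (log2, SE), Sema7a by 6.13 ± 0.17, Sema6b by 4.98 ± 0.18, Sema3c by 4.57 ± 0.13, Sema3f by 4.46 ± 0.08, Sema6a by 4.24 ± 0.15 and Sema6d by 3.59 ± 0.12. The receptors higher there were Plxna2 (3.09 ± 0.11), Nrp1 (2.32 ± 0.15), Plxnd1 (2.14 ± 0.11), Plxna4 (1.98 ± 0.10), Plxna1 (0.98 ± 0.13), Plxnc1 (0.85 ± 0.21) and Nrp2 (0.34 ± 0.12). Sema4c was higher by 2.12 ± 0.13. Sema5b also passed at 3.42 ± 0.65, a size that depends on the prior count because mesothelial cells held 0 of its UMIs. The largest adjusted p from edgeR among these 16 was 0.0218.

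In epithelial cells 10 of the 29 genes were higher, against 28.1% of all genes. They were the ligands Sema4f (5.46 ± 0.33), Sema3e (4.77 ± 0.16), Sema3a (3.42 ± 0.23), Sema3b (3.22 ± 0.18) and Sema4d (1.65 ± 0.25), and the receptors Plxnb1 (3.15 ± 0.16), Plxna2 (1.59 ± 0.13), Plxna4 (1.49 ± 0.12), Plxnb2 (1.36 ± 0.08) and Plxna1 (1.29 ± 0.15). In mesothelial cells 11 were higher, against 20.1% of all genes. Sema3d led by 3.88 ± 0.15, Plxna4 by 3.37 ± 0.10 and Sema3c by 2.68 ± 0.15, followed by Sema6d (2.02 ± 0.16), Plxnb1 (1.99 ± 0.20), Sema6a (1.97 ± 0.20), Sema5a (1.81 ± 0.16), Sema3f (1.74 ± 0.12), Sema4b (1.23 ± 0.21), Plxnb2 (0.90 ± 0.08) and Nrp2 (0.69 ± 0.14). The largest adjusted p from edgeR was 4.79e-06 in epithelial and 0.000341 in mesothelial cells.

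In mural cells 11 genes were higher, against 32.3% of all genes. They were Sema5b (5.31 ± 0.45, with the same limit), Sema6c (2.86 ± 0.31), Sema5a (2.70 ± 0.13), Sema3d (2.22 ± 0.15), Plxnb1 (2.06 ± 0.13), Sema3b (1.42 ± 0.16), Sema3f (0.94 ± 0.09), Sema4c (0.93 ± 0.13), Plxnd1 (0.89 ± 0.11), Plxna3 (0.84 ± 0.28) and Nrp1 (0.60 ± 0.16). Fibroblasts shared 6 of these and had 8 in all, against 32.9% of all genes, namely Sema6c (2.39 ± 0.32), Sema3d (2.32 ± 0.15), Plxna3 (2.07 ± 0.25), Plxnc1 (1.89 ± 0.18), Nrp1 (1.63 ± 0.15), Sema5a (1.57 ± 0.14), Nrp2 (1.41 ± 0.11) and Plxnd1 (1.02 ± 0.11). Fibroblast markers were at 34.9% of their fibroblast level in mural cells, and their part in the shared genes was not tested. In immune cells 10 genes were higher, against 37.8% of all genes, and 18 were lower, against 6127 of all 16365 genes. The higher ones were Sema4d (4.90 ± 0.13), Sema4a (3.09 ± 0.19), Sema4f (2.77 ± 0.33), Plxnc1 (2.44 ± 0.17), Sema7a (1.88 ± 0.25), Sema4b (1.77 ± 0.13), Sema6b (1.43 ± 0.24), Nrp2 (0.64 ± 0.12), Plxnd1 (0.63 ± 0.11) and Sema3e (0.49 ± 0.19). The largest adjusted p from edgeR was 0.0137, 9.89e-07 and 0.0251 in mural cells, fibroblasts and immune cells.

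Within the lineages, cells with a UMI of 1 further gene were set apart and described without a test. Cells with none or several of these genes were left out, so that rankings hold among the marked kinds only. Of the endothelial cells, 33.8% to 46.4% per mouse held none and 10.5% to 15.6% held several. Among endothelial cells, 239 held Ednrb, a gene of the alveolar capillary cells called aerocytes, and these had the highest Nrp1, at 2119 and 1555 CPM in WT mice and 1472 and 1324 CPM in Tubb3-/- mice. The 804 cells with Vwf, which marks veins and larger vessels, had a mean of 494 CPM. Values of the 2 kinds did not overlap. Cells with Ednrb were also above cells with Vwf in Sema6a (848 against 365 CPM), Plxna2 (541 against 242 CPM), Plxna4 (357 against 126 CPM), Sema7a (486 against 186 CPM), Sema3f (428 against 210 CPM) and Sema5a (252 against 26.3 CPM). They were below them in Sema3c (697 against 1657 CPM), Sema3g (37.4 against 224 CPM), Sema4c (13.2 against 51.2 CPM) and Plxnc1 (5.89 against 48.8 CPM). Sema3c and Sema3g were thus higher in the kind with less Nrp1.

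Cells with Prox1, the lymphatic transcription factor, were few (38 cells, 6 to 15 per mouse), and their values are rough. Nrp2, known in lymphatic vessels, had 532 and 674 CPM there in WT mice and 1002 and 1570 CPM in Tubb3-/- mice, all far above its 35.7 to 84.3 CPM in the other endothelial kinds. Sema3d (293, 205, 744 and 554 CPM) and Sema3a (79.8, 938, 701 and 594 CPM) were also high in these cells. Sema3c ranged from 10.1 to 2793 CPM over the same mice and gives no level for these cells.

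Epithelial cells were divided in the same way by alveolar type. The 91 cells with Hopx, a gene of alveolar type 1 cells, were high in Sema3e, with 418 and 1423 CPM in WT mice and 315 and 284 CPM in Tubb3-/- mice, whereas the 67 cells with Lamp3, a gene of alveolar type 2 cells, had a mean of 6.22 CPM. Sema3a differed in the same direction, at 291 against 17.2 CPM. The Lamp3 cells were higher in Nrp1, with 287, 285, 210 and 257 CPM against 53.7, 89.3, 39.1 and 78.6 CPM in Hopx cells, and in Plxna4 (252 against 90.1 CPM). Ligand and co-receptor were thus highest in different alveolar cells.

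Among immune cells, the 380 cells with Csf3r and no Csf1r, a pattern of neutrophils, had the highest Sema4d, at 171, 235, 289 and 283 CPM. The 911 cells with Cd3e (T cells) followed at 136 CPM. Plxnc1 was highest in the 201 cells with the NK cell gene Ncr1, at 165, 136, 114 and 155 CPM, and Sema4a was also highest there at 96.7 CPM. The 1343 cells with Csf1r, the CSF-1 receptor of mononuclear phagocytes, had the highest Nrp2 (126, 132, 156 and 127 CPM), and their mean Sema3e of 34.1 CPM was above that of the other immune kinds, which reached 8.27 CPM.

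**Figure D3:**
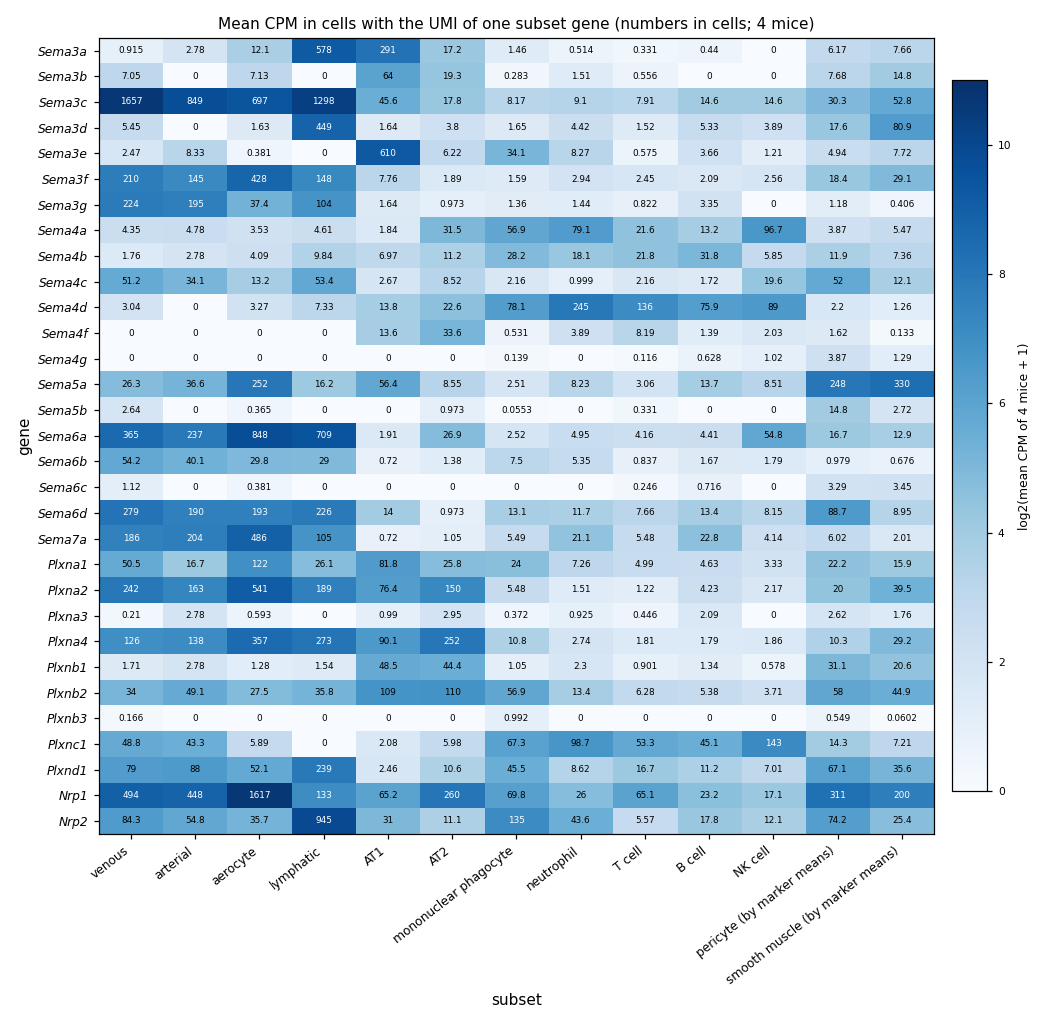
Mean CPM of the 31 genes (rows) in cells with a UMI of 1 subset gene, or in mural cells split by marker means (columns), with the value in each cell and the colour giving log2(mean CPM of 4 mice + 1). Nrp1 is darkest in the aerocyte column (1617 CPM), Nrp2 in the lymphatic column (945 CPM) and Sema3e in the AT1 column (610 CPM).

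Pericytes and smooth muscle cells, the mural kinds, differed in many of these genes. The first comparison set 42 mural cells with Higd1b and no Myh11 (5 to 16 per mouse) against mural cells with Myh11 and no Higd1b, and edgeR called 9 of 23 genes tested, against 15.2% of all genes. Since these pericytes were so few, a further split was added after the data had been seen, in which mural cells chosen by independent markers went to the kind with the higher mean of its 3 markers (Higd1b, Cox4i2 and Ndufa4l2, or Myh11, Acta2 and Cnn1). It gave 1136 pericytes and 4780 smooth muscle cells. Higd1b had 402 CPM in the former and 1.13 CPM in the latter, while Myh11 had 775 and 2782 CPM. Of 26 genes tested, 19 passed, 11 of them higher and 8 lower in pericytes, against 44.4% of all genes. All 9 genes of the first comparison were called again in the same direction.

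Sema6d was the clearest pericyte gene, with 67.2, 106, 82.8 and 99.5 CPM in the 4 mice against 8.45, 8.04, 7.54 and 11.8 CPM in smooth muscle cells. The groups were far apart, and the log2 difference was 3.12 ± 0.12 (SE, adjusted p = 1.75e-08 from edgeR), and 2.61 ± 0.48 in the first comparison (adjusted p = 1.7e-06). Sema4c followed with 52.0 against 12.1 CPM (1.92 ± 0.10 and 1.66 ± 0.56, adjusted p = 1.8e-07 and 0.0251 from edgeR). Sema4g was higher by 1.25 ± 0.33 and 3.75 ± 0.90 (adjusted p = 0.0114 and 0.00046 from edgeR). Among receptors, Nrp2 (74.2 against 25.4 CPM), Nrp1 (311 against 199.8 CPM), Plxnd1 (67.1 against 35.6 CPM), Plxnc1 and Plxnb1 were higher in pericytes in the added split, as were the ligands Sema5b, Sema7a and Sema4b. These 8 genes were not called in the first comparison.

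Sema3d was the clearest smooth muscle gene, with 76.1, 90.1, 72.9 and 84.5 CPM in smooth muscle cells against 15.2, 18.2, 12.3 and 24.7 CPM in pericytes. The groups did not overlap, and it was lower in pericytes by 2.37 ± 0.13 on the log2 scale in the added split (adjusted p = 1.78e-07 from edgeR) and by 3.92 ± 0.69 in the first comparison (adjusted p = 4.17e-07). The secreted Sema3c was lower by 0.99 ± 0.11 and 2.36 ± 0.50 (adjusted p = 4.18e-05 and 3.94e-05 from edgeR), and Sema3f by 0.83 ± 0.14 and 3.26 ± 1.11 (adjusted p = 0.000615 and 0.0248). Sema5a was lower by 0.58 ± 0.12 and 1.91 ± 0.34 (adjusted p = 0.00296 and 7.57e-07 from edgeR). The class A plexins Plxna4 (10.3 against 29.2 CPM, adjusted p = 2.84e-06 from edgeR) and Plxna2 (20.0 against 39.5 CPM, adjusted p = 4.86e-06) were lower in pericytes too. In the first comparison Plxna2 was lower by 2.76 ± 0.85 (adjusted p = 0.0104 from edgeR), and Plxna4 had 0 UMIs in the 42 pericytes, which with a floor of 3 counts over the 4 mice makes it at least 3.48-fold lower (adjusted p = 0.000149 from edgeR). Sema3b and Sema3e were lower in the added split only. Of the 7 class 3 genes, 5 were thus lower in pericytes in that split and 0 higher. Sema3a was not called, and Sema3g, with 15 UMIs in pericytes and 26 in smooth muscle cells, was not tested. Of all genes in that split, 44.4% were called in either direction, and the share called lower was not taken. In the first comparison, 1192 of all genes were lower in pericytes and 524 higher, against 6 and 3 of the family. The median log2 difference there was -0.37 over all genes and -0.46 over the family.

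In fibroblasts, cells with Cthrc1, a gene of the collagen-producing fibroblasts of injured lung, were compared with those without it, and edgeR called 5 of 26 genes tested, against 11.6% of all genes. Sema7a was low in both, with 3.38, 1.15, 8.59 and 4.96 CPM in Cthrc1-positive cells against 1.08, 0.995, 1.68 and 1.497 CPM in the others. It was higher by 1.83 ± 0.31 on the log2 scale (SE, adjusted p = 0.00512 from edgeR), although WT replicate 2 differed little. Endothelial cells had a mean of 220 CPM of Sema7a, and endothelial markers were at 0.825% of their endothelial level in fibroblasts. The part of RNA from endothelial cells in the low fibroblast values was not tested. Plxnb1 was higher by 0.98 ± 0.26 (3.07 against 1.61 CPM, adjusted p = 0.0379 from edgeR). Sema3d was higher by 0.40 ± 0.08 (92.1 against 71.7 CPM, adjusted p = 0.0141 from edgeR) and Nrp2 by 0.35 ± 0.07 (151 against 123 CPM, adjusted p = 0.00849). Nrp1 was lower by 0.21 ± 0.06 (314 against 375 CPM, adjusted p = 0.0457 from edgeR). With fibroblasts chosen by independent markers, added after the data had been seen, 8 of 28 genes passed against 25.1% of all genes. All 5 were among them in the same direction, but the mice and the Cthrc1 rule were the same, so that this is no independent check. Without WT replicate 1, 3 genes passed (8.96% of all genes), without WT replicate 2, 6 (13.3%), without Tubb3-/- replicate 1, 0 (4.41%), and without Tubb3-/- replicate 2, 1 (5.59%).

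The comparison of Tubb3-/- with WT mice asked whether loss of Tubb3 went with a change of these genes in any lineage. With genotype as the only term, none of the 31 genes passed the adjusted threshold of 0.05 in edgeR in any of the 6 lineages. The genes tested were 26 in fibroblasts, 27 in mural cells, 25 in endothelial cells, 20 in epithelial cells, 19 in mesothelial cells and 25 in immune cells. Over all genes, the calls were 0% in 5 lineages and 0.356% (34 of 9540 genes) in mesothelial cells. At an unadjusted p under 0.05 there were 6 genes of the family in fibroblasts (18.1% of all genes), 7 in mural cells (11.1%), 8 in endothelial cells (13.6%), 4 in epithelial cells (4.26%), 5 in mesothelial cells (8.58%) and 5 in immune cells (8.37%). With the sex of the mice, which coincides with the replicate number, as a further term, edgeR called Plxna2 and Sema7a in fibroblasts (10.6% of all genes), Sema3c, Sema4a and Plxnc1 in mural cells (3.68%), Nrp1 and Sema6a in mesothelial cells (3.06%), and 0 in the other 3 lineages, in fits with 1 residual degree of freedom. DESeq2 called 1 in fibroblasts (4.41% of all genes), 2 in mural cells (1.15%), 1 in endothelial cells (1.02%), and 0 in epithelial (0.0288%), mesothelial (0.396%) and immune cells (0.478%). The median log2 fold change of the family lay between -0.21 (mesothelial) and 0.02 (fibroblasts), and that of all genes between -0.01 and 0.01. The 2 Tubb3-/- values were both above or both below the 2 WT values for 9 of 27 genes with at least 30 UMIs in fibroblasts (47.7% of all such genes), 12 of 28 in mural cells (40.9%), 16 of 26 in endothelial cells (44.5%), 8 of 21 in epithelial cells (34.1%), 10 of 20 in mesothelial cells (37.5%) and 10 of 25 in immune cells (40.1%).

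**Figure D4:**
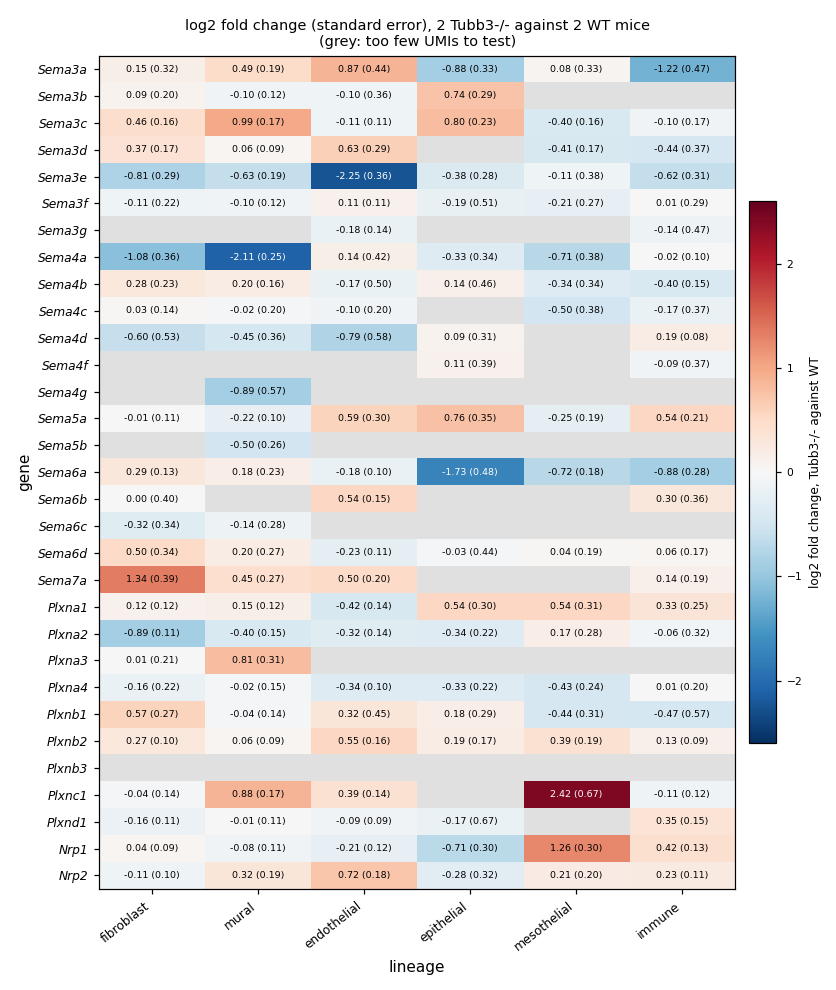
Log2 fold change of Tubb3-/- against WT mice for the 31 genes (rows) in the 6 lineages (columns), with the standard error in parentheses and grey where a gene had too few UMIs for the test. Most cells are pale, and the strongest colours, such as -2.25 for Sema3e in endothelial cells and 2.42 for Plxnc1 in mesothelial cells, come with standard errors of 0.36 and 0.67, and none of the values passed the adjusted threshold of 0.05 in these fits with genotype alone.

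In fibroblasts the smallest p belonged to Plxna2, which had 42.6 and 47.5 CPM in the WT mice and 21.9 and 26.8 CPM in the Tubb3-/- mice. The groups were apart, and the log2 fold change was -0.89 ± 0.11 (SE, adjusted p = 0.0805 from edgeR). In Cthrc1-negative fibroblasts it was -0.82 (45.6 and 45.9 against 24.4 and 28.7 CPM), in Cthrc1-positive ones -1.07 (33.3 and 54.3 against 17.4 and 23.0 CPM), and with fibroblasts chosen by independent markers -0.91. Of 17 alternatives, 5 brought it under the threshold, among them leaving out WT replicate 1 (adjusted p = 0.0092) or WT replicate 2 (adjusted p = 0.0197), while the largest adjusted p from edgeR or DESeq2 was 0.747. Sema7a (1.63 and 1.03 against 4.14 and 2.64 CPM) differed by 1.34 ± 0.39 (adjusted p = 0.185 from edgeR). The 6 endothelial markers had 59.9 and 52.5 against 52.3 and 63.0 CPM in these sums, and their part in these low values was not tested. The share of Cthrc1-positive cells, in which Sema7a was higher, was 21.1% and 17.4% of WT fibroblasts and 31.9% and 29.1% of Tubb3-/- fibroblasts, and its part in the Sema7a difference was not tested. That difference was 1.53 in Cthrc1-positive cells alone (adjusted p = 0.287 from edgeR) and 0.59 in Cthrc1-negative cells alone (adjusted p = 0.467). Sema4a differed by -1.08 ± 0.36 (adjusted p = 0.215 from edgeR). Without WT replicate 1, Sema3c, Sema3d and Sema6d also passed in fibroblasts (adjusted p = 0.0298, 0.0215 and 0.0227 from edgeR), where 6.93% of all genes did.

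In mural cells Sema4a had 9.29 and 7.70 CPM in the WT mice and 1.86 and 2.12 CPM in the Tubb3-/- mice, a log2 fold change of -2.11 ± 0.25 (adjusted p = 0.146 from edgeR). Of 17 alternatives, 8 called it, among them leaving out WT replicate 1, WT replicate 2 or Tubb3-/- replicate 2 (adjusted p = 0.0144, 0.00309 and 0.0265 from edgeR), which called 3.29%, 2.66% and 0.49% of all genes. It was -2.25 in the mural cells with Myh11 and no Higd1b (adjusted p = 0.0331 from edgeR, against 0.853% of all genes called), and by marker means -1.67 in smooth muscle cells (adjusted p = 0.0884) and -0.30 in pericytes (adjusted p = 0.889). Sema3c had 80.3 and 60.0 CPM in WT mice and 138 and 144 CPM in Tubb3-/- mice (0.99 ± 0.17, adjusted p = 0.177 from edgeR). The 6 fibroblast markers also differed in these sums, at 2773 and 2364 CPM against 4765 and 4196 CPM. Sema3c had 33.0 CPM in fibroblasts, and the independent markers placed 549 of the 4541 mural cells with the fibroblasts. The part of fibroblast RNA or cells in the result was not tested. Leaving out WT replicate 1 or 2 brought Sema3c under the threshold (adjusted p = 0.000236 and 0.00829 from edgeR), and it also passed in the mural cells with Myh11 and no Higd1b (1.06, adjusted p = 0.0331 from edgeR). With mural cells chosen by independent markers the difference was 0.19, and by marker means it was 0.24 in smooth muscle cells and -0.029 in pericytes. Plxnc1 (8.42 and 10.5 against 14.9 and 19.7 CPM, 0.88 ± 0.17, adjusted p = 0.190 from edgeR) passed without WT replicate 2 (adjusted p = 0.0241), as did Nrp2 and Plxna2 (adjusted p = 0.0172 and 0.0248), and it turned to -0.072 with the independent markers.

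In endothelial cells Sema3e had 9.33 and 14.3 CPM in the WT mice and 3.01 and 1.96 CPM in the Tubb3-/- mice, a log2 fold change of -2.25 ± 0.36 (adjusted p = 0.0828 from edgeR). It was called in 4 of 15 alternatives, among them without WT replicate 1 (adjusted p = 0.0309 from edgeR), and was -0.63 with endothelial cells chosen by independent markers (adjusted p = 0.501). The 6 epithelial markers differed in the same direction in these sums, at 55.5 and 45.0 CPM against 19.7 and 17.0 CPM, and their part in the result was not tested. The epithelial level of Sema3e itself overlapped between the genotypes. Nrp2 (79.5 and 52.8 against 106 and 106 CPM) differed by 0.72 ± 0.18 (adjusted p = 0.182 from edgeR) and Sema6b by 0.54 ± 0.15 (adjusted p = 0.215). Cells without a Prox1 UMI made up 96.3% and 97.4% of WT and 95.5% and 96.5% of Tubb3-/- endothelial cells. In these cells, which lack the lymphatic ones high in Nrp2, the Nrp2 difference was 0.49 (adjusted p = 0.377 from edgeR). Without WT replicate 1, Nrp2, Sema5a and Sema7a also passed in endothelial cells (adjusted p = 0.0194, 0.0184 and 0.0259 from edgeR), where 1.22% of all genes did. Of the 5 genes that stood out most in endothelial cells against the other lineages, the genotype difference was -0.18 ± 0.14 for Sema3g, 0.50 ± 0.20 for Sema7a, 0.54 ± 0.15 for Sema6b, -0.11 ± 0.11 for Sema3c and 0.11 ± 0.11 for Sema3f.

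These values were also taken within each pool. Both pools came from the same 4 mice, and the genes had been picked by their p in the sums over both. The same direction in both pools is therefore no independent check. The whole-cell libraries held 86 to 143 mural cells per mouse. Plxna2 in fibroblasts had 41.7 and 44.0 against 20.5 and 34.5 CPM in the whole-cell libraries and 43.0 and 49.4 against 22.9 and 22.7 CPM in the mural cell-enriched ones. Sema4a in mural cells had 8.27 and 18.9 against 1.61 and 1.91 CPM, and 9.39 and 6.24 against 1.90 and 2.13 CPM. Sema3c in mural cells had 83.5 and 51.1 against 166 and 231 CPM, and 80.0 and 61.2 against 134 and 137 CPM. All 3 differed in the same direction in both pools with no overlap of the genotypes. Sema3e in endothelial cells did so only in the whole-cell libraries (10.7 and 16.5 against 3.41 and 1.54 CPM), and in the other pool, with 62 to 127 endothelial cells per mouse, it had 0 and 3.104 against 0 and 4.36 CPM.

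**Figure D5:**
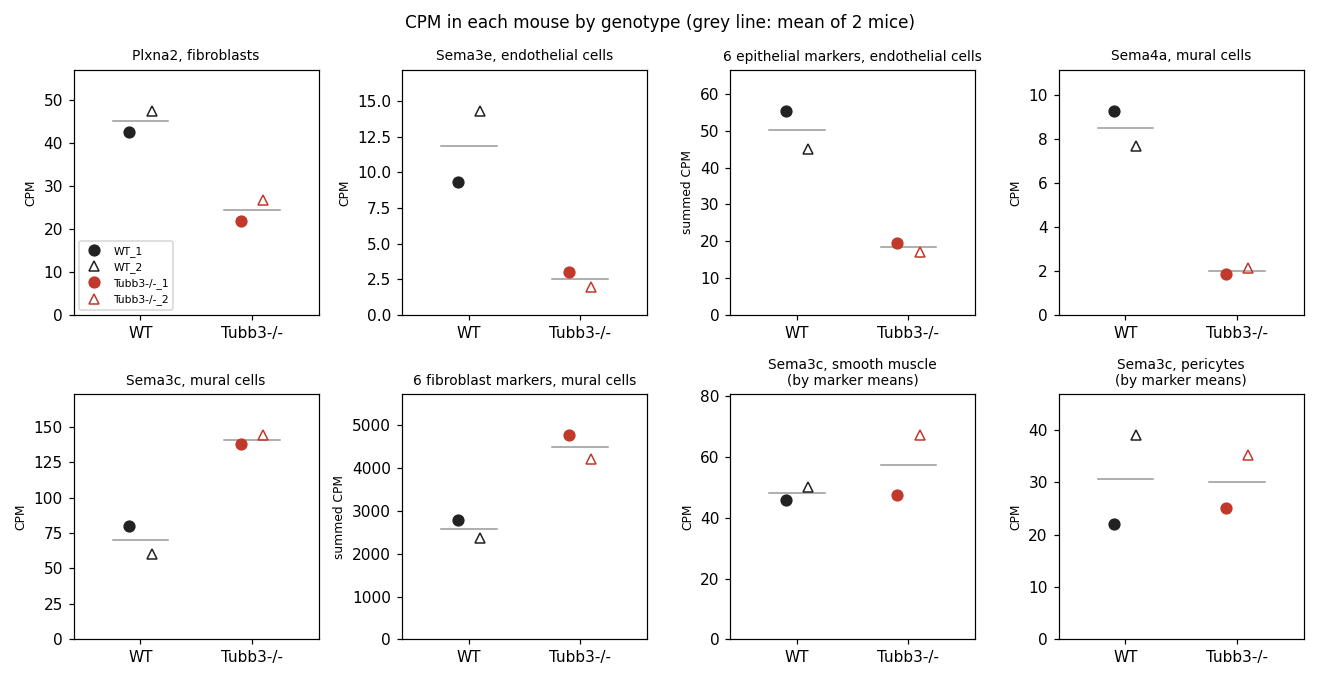
CPM in each mouse by genotype (circles for replicate 1, triangles for replicate 2, grey lines at the mean of 2 mice) for Plxna2, Sema3e, Sema4a and Sema3c, with summed CPM of the marker lists that differed in the same cells, and Sema3c in smooth muscle cells and pericytes by marker means. The WT and Tubb3-/- mice lie apart for each gene in its lineage and for both marker lists, while Sema3c by marker means spans 45.8 to 67.3 CPM in smooth muscle cells and 22.1 to 39.0 CPM in pericytes with the genotypes overlapping.

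The smaller lineages gave wider errors. In mesothelial cells Nrp1 had 24.9 and 21.0 CPM in the WT mice and 66.3 and 42.3 CPM in the Tubb3-/- mice (1.26 ± 0.30, adjusted p = 0.147 from edgeR). Without Tubb3-/- replicate 2 it passed (adjusted p = 0.000182 from edgeR), as did Plxna4 (-0.85, adjusted p = 0.016) and 3.33% of all genes, but with mesothelial cells chosen by independent markers Nrp1 turned to -0.51. Fibroblast markers in these sums were 3591 and 4289 CPM against 6270 and 5158 CPM, fibroblasts had more Nrp1 than mesothelial cells, and the part of this in the result was not tested. Sema6a differed by -0.72 ± 0.18 (adjusted p = 0.174 from edgeR) and Plxnc1 by 2.42 ± 0.67 (adjusted p = 0.229). In epithelial cells the 3 smallest p belonged to Sema6a (-1.73 ± 0.48), Sema3c (0.80 ± 0.23) and Sema3a (-0.88 ± 0.33), each with an adjusted p of 0.979 from edgeR. In immune cells they belonged to Nrp1 (0.42 ± 0.13), Sema6a (-0.88 ± 0.28) and Sema4b (-0.40 ± 0.15), with adjusted p of 0.554, 0.555 and 0.592 from edgeR. Sema3e passed in immune cells without WT replicate 1 (-1.02, adjusted p = 0.0147 from edgeR), where 3.39% of all genes did.

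Whether the genotype difference itself varied between lineages was tested with the lineage-by-genotype terms together, and edgeR called 0 of 29 genes, against 0.0367% (6) of all genes. At an unadjusted p under 0.05 there were 7, against 8.51% of all genes, and DESeq2 called 4 of 25, against 2.36% of all genes. The smallest p belonged to Sema3c (adjusted p = 0.0678), Sema4a (0.167) and Sema6a (0.20, all from edgeR). Without WT replicate 1, 3 genes were called (Sema3c, Sema5a and Sema6a), against 1.49% of all genes. Without WT replicate 2, 0 were called (0.261% of all genes), and without either Tubb3-/- mouse 0 (0% of all genes). A list of 42 further genes of the pathway, among them the co-receptors Met, Erbb2 and L1cam, VEGF receptors and ligands, regulators of small GTPases, the Mical oxidoreductases and the collapsin response mediator genes, was tested in the same fits. Between 29 and 39 of them could be tested in a lineage, and edgeR called 0 by genotype in each of the 6.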

How the data were processed

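The authors deposited whole-number UMI counts per gene and cell for each tagged library, made with Cell Ranger 7.1.0 on mm10 and not normalized. The genotype of each mouse was taken from the tag names in the labels. Gene coordinates are those of GENCODE vM21, and whether the counting used strand is not given in the sources used here, so that overlapping genes on either strand cannot be told apart for members such as Plxna2, Plxna4 and Sema3a. Of 32121 barcodes, 30860 had 200 to 7500 genes and at most 15% mitochondrial UMIs, the limits of the study's methods. No doublet caller was run, and cells with genes of several lineages were dropped. The dropped cells were deeper, with a median of 17437.5 UMIs against 10650 in the cells of 1 lineage. Tag counts were set aside, and 1 further list of markers is not reported here.

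UMIs were summed per mouse and lineage over both pools, and genes present in at least 3 cells went into the quasi-likelihood test of edgeR 4.0.16 under R 4.3.3, after its filterByExpr filter and TMM scaling. P-values were adjusted by Benjamini and Hochberg's method over every gene of a fit, at a threshold of 0.05. Cells were never replicates, and with 2 mice per genotype the p-values measure the spread between these mice. Genotype was fitted in each lineage alone, and lineages and cell kinds with the mouse as a block. CPM are relative to all gene UMIs of a sum. Standard errors are those implied by the F statistic. DESeq2 1.42.0, other normalization, filters, lineage rules, pools and replicates left out were alternatives. The fits were tested on simulated data. Fold changes were to be given for each member called or, where 0 were called, for the 3 with the smallest p. The members, gene lists and tests were chosen with earlier results of these data known.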

Additional observations from a re-analysis of the deposited data

How the results depend on the processing

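Of 846 log2 values recomputed for the 66 lineage differences, 826 kept their direction and side of the threshold, 18 were no longer called, and 2 reversed, both in the mural cell-enriched pool alone, with 13 to 33 immune cells per library (immune Sema3e -8.94 and Sema7a -1.36). Sema3e had 0 UMIs in all 4 mice there and Sema7a had UMIs in 1, so that both sizes depend on the prior count. Of 175 values for pericytes and for Cthrc1-positive fibroblasts, 134 kept their call and 41 lost it. Of 281 genotype values for 18 results, 235 stayed uncalled, 39 became called and 7 reversed. With lineages by the independent markers, Plxnc1 was -0.072 in mural cells and -0.54 in mesothelial cells, and Nrp1 -0.51 in mesothelial cells. In pericytes by marker means Sema3c was -0.029 and Plxnc1 -0.26, in smooth muscle cells by marker means Plxnc1 was -0.059, and in the whole-cell pool alone epithelial Sema3a was 0.000319. The causes were not tested.

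Counts of called genes moved as follows. Shares in parentheses are of all genes in the same fit. DESeq2 called 1 by genotype in fibroblasts (4.41%), 2 in mural cells (1.15%), 1 in endothelial cells (1.02%), 4 between lineages (2.36%) and 3 by Cthrc1 (8.28%). With no filter on low counts, genotype calls were 4 in mural (3.67%), 6 in endothelial (4.34%), 2 in epithelial (0.811%) and 3 in mesothelial cells (1.9%), and 10 between lineages (3.18%). With at least 2 UMIs of the lineage gene there was 1 in endothelial cells (0.647%) and 1 between lineages (0.172%). The whole-cell pool alone gave 1 for pericytes (8.93%) and 2 for Cthrc1 (12.3%). The mural cell-enriched pool alone gave 1 by genotype in endothelial cells (0.258%), 1 between lineages (0.11%), 1 for Cthrc1 (6.75%), and 7 higher in mural (28.2%) and 6 in immune cells (21.5%). Independent markers gave 19 for pericytes (44.4%) and 8 for Cthrc1 (25.1%). All 6 lineages in one fit gave 1 in fibroblasts (1.14%) and 2 in mural cells (0.126%), and smooth muscle cells only gave 2 (0.853%).

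Leaving out 1 mouse gave genotype counts of 0 to 4 in fibroblasts (up to 6.93%) and endothelial cells (up to 1.22%), 0 to 5 in mural (up to 3.29%), 0 to 2 in mesothelial (up to 3.33%), 0 to 1 in immune (up to 3.39%) and 0 to 0 in epithelial cells (up to 0.26%). It gave 0 to 6 for Cthrc1 (4.41% to 13.3%) and 6 to 8 for pericytes (8.12% to 13.2%). Lineage counts were 15 to 17 in endothelial cells (25.9% to 28.9%), 10 in epithelial cells (25.2% to 25.7%) and 8 in fibroblasts (28.2% to 30%). They were 9 to 10 in immune cells (36.1% to 38.1%), 11 in mesothelial cells (17.4% to 19.2%) and 10 to 11 in mural cells (27.8% to 29.5%). The mouse left alone in its group was assumed to vary like the others.

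With the replicate number as a block, 2 genes were called in fibroblasts (Plxna2 and Sema7a, adjusted p = 0.00187 and 0.0243 from edgeR), 3 in mural cells (Sema3c, Sema4a and Plxnc1, adjusted p = 0.00403, 0.00396 and 0.0123) and 2 in mesothelial cells (Nrp1 and Sema6a, adjusted p = 0.00176 and 0.0341). The labels do not say that the numbers pair the mice, they coincide with sex, and deviations of same-numbered mice correlated by 0.073 to 0.29 over genes in the 6 lineages, so that the block was no part of the tests reported first.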
